A study of Mus musculus with 48 samples.

Results

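Otx2, Pou3f1, Fgf5, Utf1, Tcf15, Sall2 and Lef1 are genes of the formative and postimplantation epiblast, and they were chosen here by name. All 7 are among the 49671 genes of the deposited count table. They were read in 48 single cells of the mouse inner cell mass (ICM) at embryonic stage E3.75, sequenced by Smart-seq2, a full-length single-cell RNA-seq method. The cells came from 3 embryos of Pdgfra H2B-GFP/+ mice crossed with F1 hybrids (C57BL/6JxCBA/J) by natural mating. By the study's methods every embryo carried the same allele, a histone-GFP fusion in 1 copy of the locus of Pdgfra, a receptor gene of the primitive endoderm. The sample titles read WT and do not name this allele. Embryos with intermingled GFP-positive and GFP-negative cells were picked. ICMs were isolated by immunosurgery, which lyses the trophectoderm, and were dissociated with Accutase and trypsin.

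Cells of one branch of a clustering tree are named prospective epiblast (pEPI) and those of the other prospective primitive endoderm (pPrE). Read by eye from that tree, 25 cells were pEPI and 23 pPrE, while the sample labels put all cells in 1 group. The labels do not say which embryo a cell came from, so the cells were treated as 1 sample. No p-value or standard error was computed, and every SD below is the spread between cells. Shares of cells have 95% Clopper-Pearson intervals, and log2 ratios of pEPI over pPrE have approximate 95% counting intervals. The intervals of shares take the cells as independent draws, which cells of the same embryo may not be. Those of ratios are for the counting error of reads alone, and since the reads carry no molecular identifiers, several may stem from 1 molecule. Neither kind covers the spread between embryos.

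The naive epiblast of the blastocyst loses its naive transcription factors around implantation and passes through a formative state in which it gains competence for lineage induction. In that state Otx2 acts with Pou5f1 at enhancers of postimplantation genes, de novo DNA methyltransferases accumulate, and Fgf5 is the classical marker of the epiblast after implantation. Primitive streak genes such as T follow during gastrulation. Otx2 also acts in the visceral endoderm, a derivative of the primitive endoderm.

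Total counts per cell ran from 1718970 to 7342785, with medians of 3751329 in pEPI and 4251373 in pPrE, and 9202 to 11547 genes had a count. Expression is given as FPKM, counts scaled for sequencing depth and for exon length, so levels can be compared between genes. Of 10 primitive endoderm markers, 9 were at least 2-fold higher in pPrE, and 5 of 8 pEPI markers were at least 2-fold higher in pEPI. The tree was built on these cells, so those counts describe the branches and test nothing. Of 8 trophectoderm markers, Dlx3 had no count in any cell and Cdx2 had counts in 3, while of the 6 counted in at least 5 cells 2 were at least 2-fold higher in pEPI and 2 in pPrE. Over all genes counted in at least 5 cells, 12.7% were at least 2-fold higher in pEPI and 9.65% in pPrE. The summed FPKM of the trophectoderm markers per cell lay between 13.3 and 219 in pEPI, and between 19.8 and 116 in pPrE. The part of any residual trophectoderm in the results was not tested.

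The members fell into 3 kinds by how often they were counted. Utf1 was counted in 47 of 48 cells, Tcf15 in 20 and Otx2 in 18, whereas Pou3f1 and Sall2 were counted in 5 cells each and Fgf5 and Lef1 in 2 each. By mean FPKM over all cells the order was Utf1 at 139, Tcf15 at 5.42, Otx2 at 2.40, Fgf5 at 0.234, Sall2 at 0.0890, Pou3f1 at 0.0784 and Lef1 at 0.00258. Utf1 stood above 98.0% of the genes with a count, and Lef1 above 1.21%. The means of Tcf15 and Otx2 lie within 1 SD of each other, and the order of the last 4 rests on 2 to 5 cells each. A cell held 1 to 5 members and no cell lacked all of them, with a median of 2 in both branches.

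**Figure D1:**
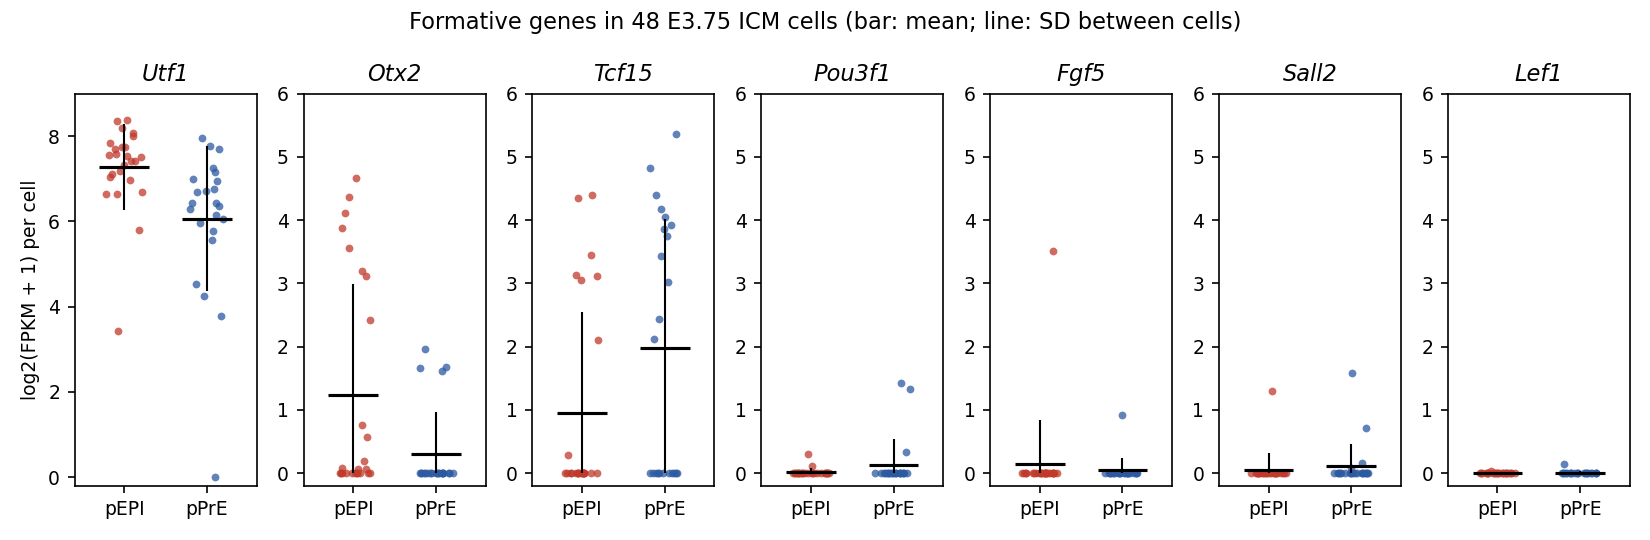
Level of each member, log2(FPKM + 1), in each of the 25 pEPI cells (red) and 23 pPrE cells (blue). Bars are means and vertical lines the SD between cells, cut at 0; the Utf1 panel has a wider axis. Utf1 is present in all but 1 cell, Otx2 reaches its highest levels in pEPI, Tcf15 reaches its highest level in pPrE, and the other 4 are at 0 in nearly every cell.

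A gene was compared by level where it was counted in at least 5 cells, which 5 members were, Fgf5 and Lef1 being under that number. Among the 15274 genes so counted, 12.7% had a mean FPKM at least 2-fold higher in pEPI and 9.65% at least 2-fold higher in pPrE. Among the 5409 genes counted in 5 to 24 cells, as Otx2, Tcf15, Pou3f1 and Sall2 were, these shares were 26.1% and 20.7%. Of the 5 members, only Otx2 was past 2-fold in pEPI, while Tcf15, Pou3f1 and Sall2 were past it in pPrE, and Utf1 was within 2-fold. With 5 genes such counts cannot be set apart from these backgrounds, and the ratios of Pou3f1 and Sall2 rest on so few cells that they are given as counts below.

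Otx2 is a homeodomain transcription factor that redirects Pou5f1 to new enhancers as naive pluripotency ends (ENSMUSG00000021848, GRCm38 chr14:48657677-48673819, minus strand). It was counted in 14 of 25 pEPI cells (56%, interval 34.9 to 75.6%) and in 4 of 23 pPrE cells (17.4%, 4.95 to 38.8%). The pEPI counts summed to 1862 and the pPrE counts to 169. In pEPI the level ranged from 0 to 24.3 FPKM with a median of 0.0494, and in pPrE from 0 to 2.89 with a median of 0.

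The pEPI cells with Otx2 were of unlike levels. Counts were 584 in well C4, 313 in B1, 258 in A6, 223 in C3, 155 in F4, 142 in C7, 89 in F3 and 77 in C1. They were 9 in D6, 7 in E3, 2 in E5 and 1 each in A7, B2 and C2. So 8 cells had 77 counts or more and 6 had 9 or fewer, with nothing between. The 4 pPrE cells lay in a narrow band of 54 counts in F5, 49 in D2, 41 in D7 and 25 in D3, or 2.07 to 2.89 FPKM. Each of the 8 high pEPI cells was above every pPrE cell, at 4.33 FPKM or more. The 6 low ones, at 0.689 FPKM or less, were below all 4 pPrE cells with Otx2. The cut between high and low was drawn on these same values, so this describes them and tests nothing.

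Mean Otx2 was 4.25 ± 7.17 FPKM in pEPI (SD, n = 25 cells) and 0.404 ± 0.911 in pPrE (SD, n = 23 cells), a ratio of 10.5-fold or 3.39 on the log2 scale (counting interval 3.17 to 3.63). The 8 high cells carried it, C4 alone holding 31.4% of the pEPI counts. On the log2(FPKM + 1) scale the difference of means was 0.94, less than the SD of 1.75 between pEPI cells. With every cell thinned to the depth of the shallowest, Otx2 was counted in 11 pEPI and 4 pPrE cells, and at 10 CPM, depth-scaled counts, or more it was held by 8 and 1. Without the wells lettered D, which hold 3 of the 4 pPrE cells with Otx2, the log2 ratio was 5.16.

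Pou3f1, also called Oct6, is a POU transcription factor of the postimplantation epiblast (ENSMUSG00000090125, chr4:124656807-124660655, plus strand). It was counted in 2 of 25 pEPI cells, with 3 counts in E5 and 1 in E3, and in 3 of 23 pPrE cells, with 26 counts in D2, 16 in D3 and 6 in F5. All 5 cells also held Otx2, with 54, 49, 25, 7 and 2 counts. They were also the 5 cells with the most genes counted of all 48, from 11076 to 11547, and the part of this in the shared counts was not tested. Its highest level was 1.68 FPKM, in D2, and no cell reached 10 CPM. Among its relatives Pou5f1, the core pluripotency factor, was counted in all 48 cells at 369 ± 51.5 FPKM in pEPI and 345 ± 68.0 in pPrE (SD between cells), a difference smaller than either SD, and Pou3f2 and Pou3f3 were counted in 1 and 4 cells.

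Tcf15 is a basic helix-loop-helix factor known to prime embryonic stem cells for differentiation (ENSMUSG00000068079, chr2:152143561-152149097, plus strand). Its direction was the opposite of that of Otx2. It was counted in 8 of 25 pEPI cells (32%, interval 14.9 to 53.5%) and 12 of 23 pPrE cells (52.2%, 30.6 to 73.2%), and these intervals overlap. The pEPI counts were 68 in E3, 59 in D6, 35 in B2, 32 in E2, 31 in C7, 27 in A3, 11 in E5 and 1 in A4. The pPrE counts were highest in F7, at 284, and ran from 11 to 73 in the other 11 cells.

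Mean Tcf15 was 3.03 ± 5.89 FPKM in pEPI (SD, n = 25 cells) and 8.02 ± 10.7 in pPrE (SD, n = 23 cells), a log2 ratio of -1.41 (counting interval -1.61 to -1.20). That is 2.65-fold higher in pPrE, and the difference is smaller than the SD between pPrE cells. F7 held 35.9% of the pPrE counts, and without it the ratio was -1.12. The ratio kept its sign under all 16 alternatives tried, from -1.83 to -0.98. Otx2 and Tcf15 were counted together in 5 pEPI and 3 pPrE cells.

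Tcf15 binds DNA with E proteins and is held inactive by Id proteins, so both were looked at. Of 7 genes of this set counted in at least 5 cells, Tcf15 included, 1 was at least 2-fold higher in pEPI and 2 were in pPrE. Over all genes so counted the shares were 12.7% and 9.65%, and counts of so few genes cannot be set apart from them. Id3, an inhibitor, was at 143 ± 87.4 FPKM in pEPI and 62.3 ± 43.7 in pPrE, a log2 ratio of 1.20. Id1, another inhibitor, was at 4.08 ± 7.27 and 20.9 ± 31.5, a ratio of -2.35. The third past 2-fold is Tcf15, and the E protein genes Tcf3, Tcf12 and Tcf4 were within it at 0.29, -0.77 and -0.99.

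Sall2 and Lef1 were close to undetected. Sall2, a zinc finger factor of the spalt family (ENSMUSG00000049532, chr14:52311172-52328762, minus strand), had 27 counts in the pEPI cell E5 and 36 in D5, 17 in E6, 3 in D7 and 1 in A8 among pPrE cells. Its relative Sall4 was counted in every cell, at 40.5 ± 18.6 FPKM in pEPI and 71.0 ± 24.8 in pPrE, and Sall1 in 21 cells of each branch. Lef1, a nuclear effector of Wnt signalling (ENSMUSG00000027985, chr3:131110471-131224356, plus strand), had 1 count in E7 and 4 in B7. Its relatives Tcf7l1, a repressor that restrains naive pluripotency genes, and Tcf7l2 were counted in 36 and 46 cells. Tcf7l2 was 2.31-fold higher in pEPI and Tcf7l1 was at a log2 ratio of -0.94.

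Utf1, a chromatin-bound protein of pluripotent cells (ENSMUSG00000047751, chr7:139943789-139945112, plus strand), was the member detected throughout. The lowest, median and highest levels were 9.71, 181 and 333 FPKM in pEPI, and 0, 85.3 and 248 in pPrE. The cell without a count was the pPrE cell A1, which had 307.7 FPKM of Nanog and 3390494 counts in all. The branches overlapped, and in 79.7% of pEPI and pPrE cell pairs the pEPI cell was higher.

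Mean Utf1 was 179 ± 78.9 FPKM in pEPI (SD, n = 25 cells) and 95.9 ± 64.8 in pPrE (SD, n = 23 cells), which is 1.87-fold or 0.90 on the log2 scale (counting interval 0.87 to 0.93). On the FPKM scale the difference exceeded the SD of either branch, and Utf1 was the only member of which that held. On the log2(FPKM + 1) scale the difference was 1.21, against SDs of 1.00 in pEPI and 1.69 in pPrE. Under the 16 alternatives the log2 ratio stayed between 0.73 and 1.53.

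Over the 48 cells the level of Utf1 rose and fell most closely with that of Gm10093, a processed pseudogene whose reads may be shared with its parent gene, by Spearman's rho of 0.76 among 10053 genes counted in at least 24 cells. Tpd52 followed at 0.74 and Morc1 at 0.73. Within pEPI these values were 0.62, 0.46 and 0.37, and within pPrE 0.59, 0.60 and 0.67. Nanog gave 0.58 over all cells but 0.42 and 0.24 within the branches, and Pou5f1 gave -0.08. The cells stem from the same 3 embryos, and rho with total count was 0.00.

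Fgf5, a secreted FGF ligand (ENSMUSG00000029337, chr5:98254184-98277030, plus strand), was counted in 2 cells. The pEPI cell C8 held 122 counts, or 10.3 FPKM, and the pPrE cell D2 held 9. C8 had no count of Otx2 or Pou3f1 and had the most Utf1 counts of any cell, 1899, with 672 FPKM of Nanog. Its sister ligand Fgf4, which the early epiblast makes, was counted in 21 pEPI and 12 pPrE cells at 29.3 ± 31.6 and 2.11 ± 4.21 FPKM. Fgfr2, a receptor through which FGF4 acts on the primitive endoderm, was counted in 9 pEPI and all 23 pPrE cells at 1.01 ± 2.16 and 9.85 ± 6.41 FPKM. Of 6 FGF5 receptors and sister ligands counted in at least 5 cells, 1 was at least 2-fold higher in pEPI and 3 in pPrE. Over all genes so counted the shares were 12.7% and 9.65%.

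**Figure D2:**
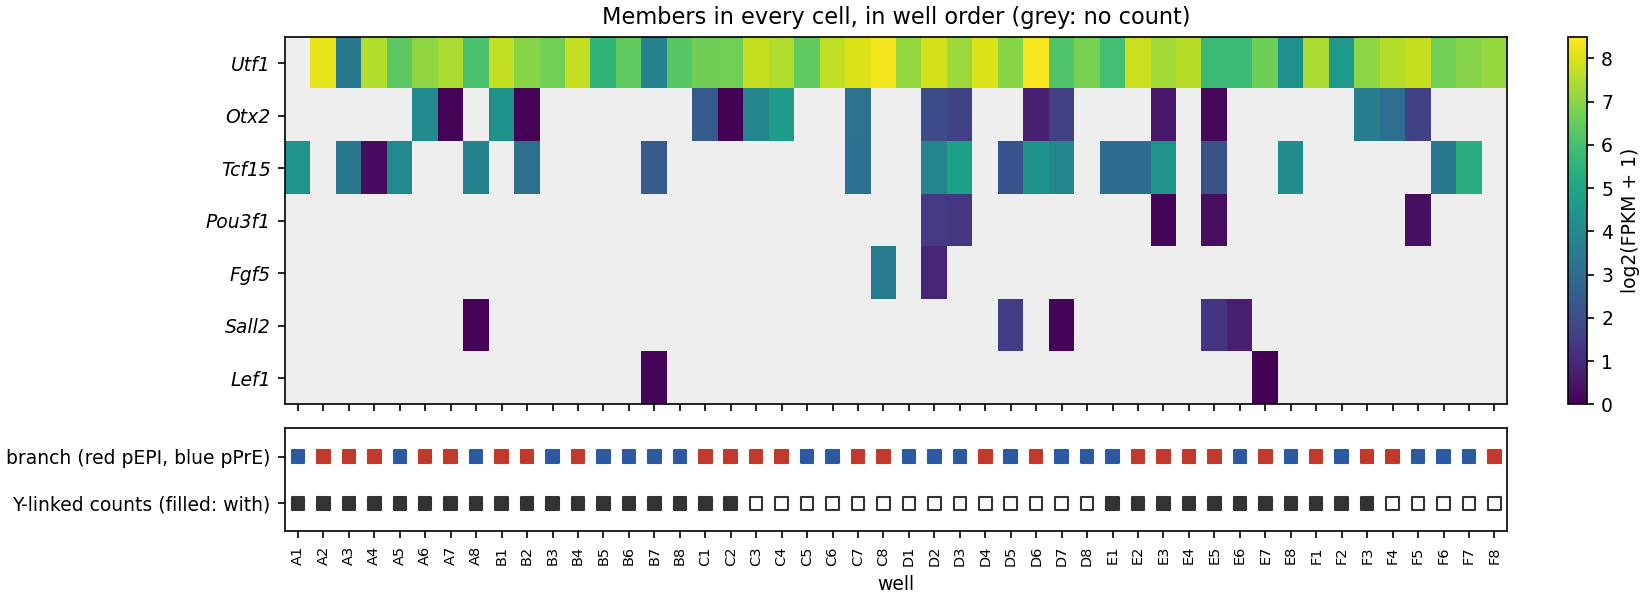
Level of the 7 members, log2(FPKM + 1), in each of the 48 cells in the order of their wells, with cells without a count in grey. The strips under it give the branch and whether the cell had counts of Y-linked genes; the wells fall into 4 runs by Y-linked counts, and the 4 pPrE cells with Otx2 lie in the runs without.

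Cells that held many members were few. The pPrE cell D2 held Otx2, Pou3f1, Fgf5, Utf1 and Tcf15, and it also had 59 counts of Mixl1, 57 of Evx1 and 11 of T, genes of the primitive streak. It was the cell with the most genes counted, 11547, and it held 35.4 FPKM of Nanog and 25.7 of Gata6, a primitive endoderm factor. The pEPI cell E5 held 5 members as well, among them Sall2, with 11168 genes counted, 56.6 FPKM of Nanog and 46.1 of Gata6. It was placed with pPrE when cells were parted by the first principal component of the variable genes. Whether more than 1 cell entered a well was not tested.

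Cells could be parted by sex-linked transcripts, since the labels do not give the embryo. The counts of Kdm5d, Uty, Eif2s3y and Ddx3y, 4 genes of the Y chromosome, summed to at least 242 counts in 29 cells and to at most 1 in the other 19. The wells A1 to C2 and E1 to F3 had Y-linked counts, and C3 to D8 and F4 to F8 had none to speak of. The former set held 17 pEPI and 12 pPrE cells, the latter 8 pEPI and 11 pPrE cells. Median totals were 3966920 and 4251373, and median numbers of genes 10300 and 10247. Sex, embryo and any difference in age between embryos cannot be told apart here, and this division was examined after earlier results of these data were known.

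Of the members, Utf1 differed between these cell sets by more than the spread between cells. It was at 151 ± 68.0 FPKM in pEPI cells with Y-linked counts and 238 ± 69.4 in those without. In pPrE it was at 52.3 ± 32.8 and 144 ± 57.2, so the difference between the sets exceeded either SD in both branches. The log2 ratio of pEPI over pPrE was 1.53 among cells with Y-linked counts and 0.73 among those without.

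Otx2 in pPrE cells was seen only without Y-linked counts, in 4 of 11 such cells against 0 of 12, which allows a share of up to 25%. Among pEPI cells it was counted in 9 of 17 in the set with Y-linked counts, beside 5 of 8 without, at means of 3.04 ± 6.26 and 6.80 ± 8.71 FPKM. Within the cells without Y-linked counts the log2 ratio of pEPI over pPrE was 3.01. In the cells with them it was at least 7.67, with the pPrE cells set at the floor of 3 counts over the group. Both Fgf5 cells lacked Y-linked counts, and both Lef1 cells had them. Tcf15 was higher in pPrE within both sets, at log2 ratios of -1.16 with and -1.53 without Y-linked counts.

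**Figure D3:**
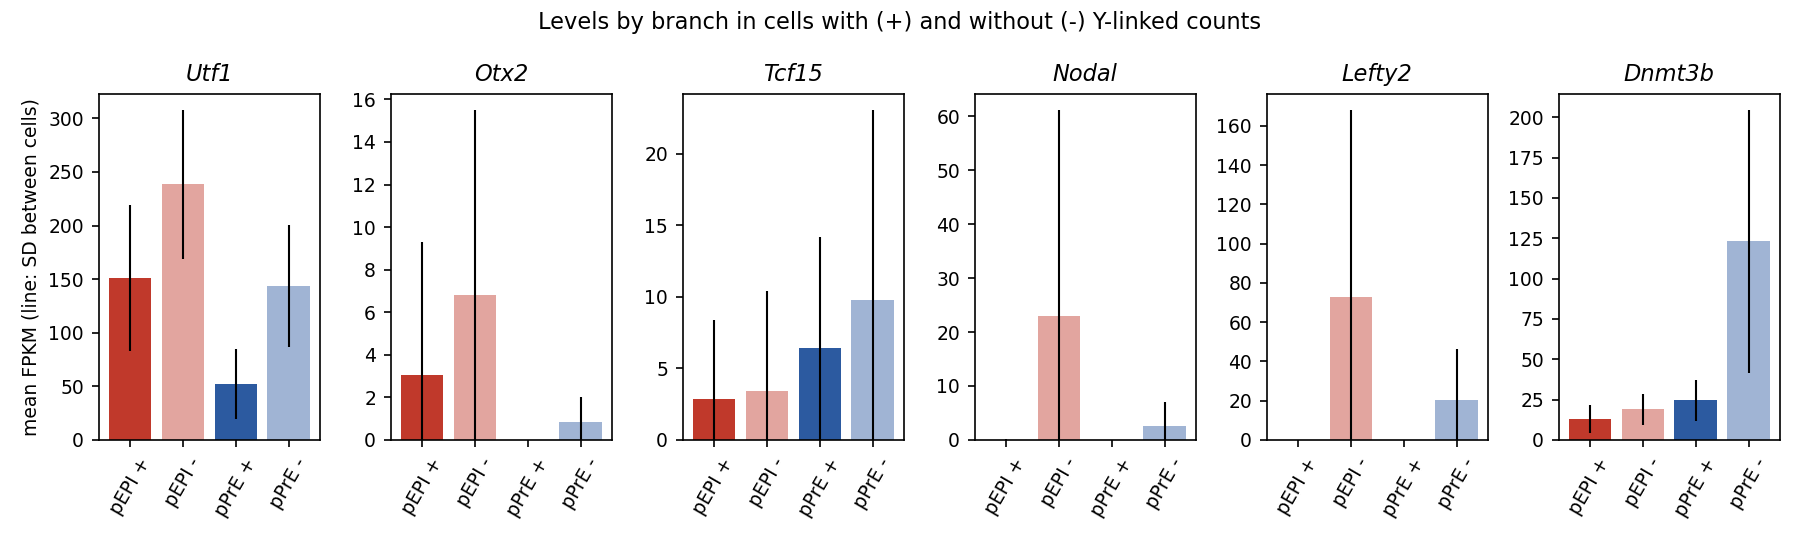
Mean FPKM of 3 members and of Nodal, Lefty2 and Dnmt3b in pEPI (red) and pPrE (blue) cells with (+, 17 and 12 cells) and without (-, 8 and 11 cells) Y-linked counts. Lines are the SD between cells, cut at 0. Utf1 was higher without Y-linked counts in both branches, Lefty2 had no count in any cell with Y-linked counts, and Dnmt3b was highest in pPrE cells without them.

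Of the other 26 formative and postimplantation genes looked up, 21 were counted in at least 5 cells. Of these, 7 were at least 2-fold higher in pEPI, 4 at least 2-fold higher in pPrE and 10 within 2-fold, with a median log2 ratio of 0.23, beside 0.00 over all genes so counted. Over all genes so counted the shares past 2-fold were 12.7% and 9.65%. Among genes counted in 5 to 24 cells, as 8 of the 21 were, they were 26.1% and 20.7%. Those 8 include Zic5, Sox11, Nodal, Foxd3 and Lefty2. Sox3 and Fgf15 had no count in any cell, and Zic2, Sox4 and Fgf8 were counted in 1 or 2 cells. Pou5f1 had the highest level of the list.

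The genes higher in pEPI were Zic5, Sox11, Nodal, Foxd3, Sox2, Etv5 and Lefty2, with log2 ratios of 3.40, 2.71, 2.62, 2.20, 1.83, 1.57 and 1.24. Zic5 and Foxd3 are transcription factors of the epiblast, and Foxd3 was counted in 12 pEPI and 4 pPrE cells. Zic5 was counted in 10 and 6 cells, with 49.4% of its pEPI counts in C8, and Sox11 in 6 and 3 cells. On the log2(FPKM + 1) scale the differences of Zic5, Sox11 and Foxd3 were 0.68, 0.30 and 0.73. Each was smaller than the SD between pEPI cells, at 1.38, 0.83 and 1.32. Etv5, an effector of FGF signalling, was counted in every cell, at 62.4 ± 31.6 FPKM in pEPI and 20.98 ± 18.1 in pPrE. Sox2, shared by the naive and formative states, was at 12.4 ± 10.4 and 3.48 ± 4.27 FPKM. Nodal, a signal that sustains the epiblast, was counted in 6 and 3 cells, but 3 of the 6 had 1 count, and at 1 CPM or more it was held by 3 cells of each branch. The pEPI cell C4 held 63.1% of its pEPI counts, and without that cell its log2 ratio was 1.46. Lefty2 was counted in 5 pEPI and 8 pPrE cells. C4 held 43.9% of its pEPI counts, without that cell its ratio was 0.62, under 2-fold, and on the log2(FPKM + 1) scale its mean was lower in pEPI, by a difference of -0.33. The other genes past 2-fold stayed past it without their highest cell.

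The genes higher in pPrE were Dnmt3b, Dnmt3a, Pim2 and Dnmt3l, with log2 ratios of -2.27, -2.19, -1.97 and -1.44. All 3 Dnmt3 genes, which encode the de novo methyltransferases and their cofactor, were thus higher in pPrE. For Dnmt3b the log2 ratio was -2.69 among cells without Y-linked counts and -0.94, within 2-fold, among those with them. Dnmt3b was at 14.8 ± 9.14 FPKM in pEPI and 71.6 ± 75 in pPrE, Dnmt3a at 2.05 ± 2.37 and 9.36 ± 5.21, and Dnmt3l at 35.3 ± 35.8 and 95.6 ± 49.0. For Dnmt3a and Dnmt3l the difference was larger than the SD of either branch, and for Dnmt3b it was smaller than the SD between pPrE cells.

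**Figure D4:**
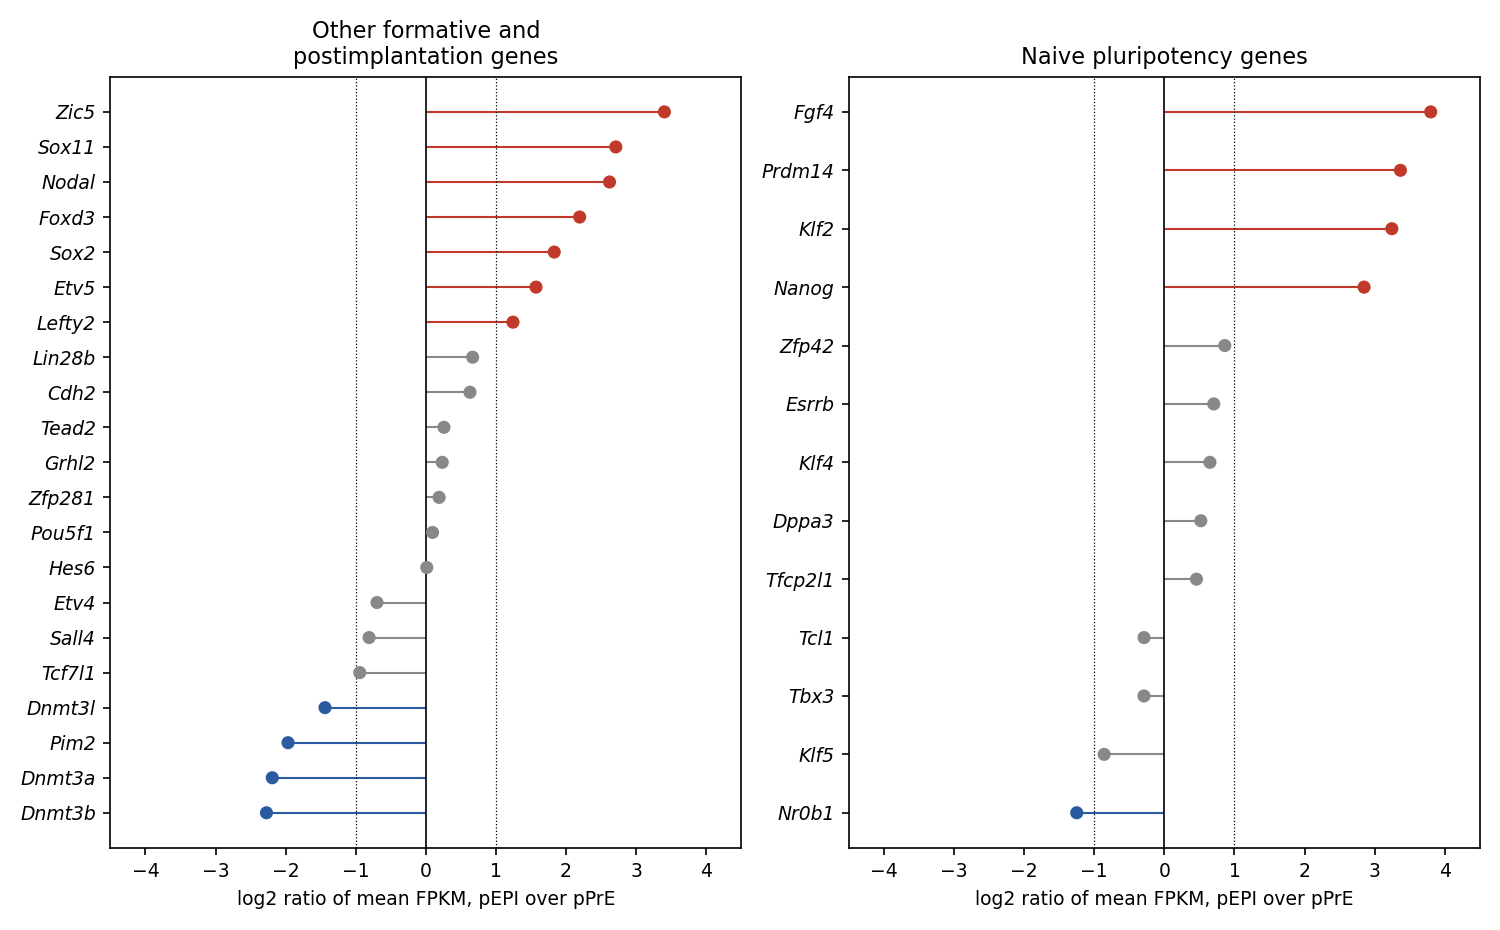
Log2 ratio of mean FPKM, pEPI over pPrE, of the 21 other formative and postimplantation genes and the 13 naive pluripotency genes counted in at least 5 cells. Red and blue points are at least 2-fold higher in pEPI or pPrE, dotted lines mark 2-fold, and no error is drawn; the formative genes lie on both sides, from 3.40 for Zic5 to -2.27 for Dnmt3b, and the naive genes from 3.80 for Fgf4 to -1.25 for Nr0b1.

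All 13 naive pluripotency genes were counted in at least 5 cells. Of these, 4 were at least 2-fold higher in pEPI, namely Fgf4, Prdm14, Klf2 and Nanog with log2 ratios of 3.80, 3.37, 3.25 and 2.85, and 1 in pPrE, Nr0b1 at -1.25. Their median was 0.65, beside 0.00 over all genes so counted. Over all those genes the shares past 2-fold were 12.7% in pEPI and 9.65% in pPrE. The highest level of the 13 was that of Dppa3, a maternal and germ cell factor, at 1374 ± 375.1 FPKM in pEPI and 958 ± 414 in pPrE. Of 8 primitive streak genes, 4 were counted in at least 5 cells and none of them was past 2-fold, the highest being Gsc at 20.02 ± 15.8 and 11.2 ± 9.21 FPKM.

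Genes of the other formative list also differed between the Y-linked sets. Over all cells, 11.6% of the 15274 genes were at least 2-fold higher without Y-linked counts and 10.8% at least 2-fold higher with them. Among the 5409 genes counted in 5 to 24 cells these shares were 25% and 23.1%. Of the 5 members compared, Pou3f1 was at least 2-fold higher without them with the branches pooled, on 48 counts against 4. The other 4 were then within 2-fold. Within pPrE 4 members were at least 2-fold higher without them, Utf1 and Sall2 at log2 ratios of 1.46 and 1.72. Otx2 and Pou3f1 were there at least 5.82 and 4.26, with the cells with Y-linked counts at the floor. Within pEPI only Otx2 was past 2-fold in that direction, at 1.16. Sall2 went the other way there, at most -2.32, with the cells without Y-linked counts at the floor. Of the 21 other formative genes, 8 were at least 2-fold higher without them when the branches were pooled and none with them, 5 of the 8 being counted in 5 to 24 cells, and the list's median log2 ratio of cells without over cells with Y-linked counts was 0.67, beside 0.01 over all genes. These 8 were Dnmt3b, Zic5, Lin28b, Sox11, Nodal, Lefty2, Tead2 and Tcf7l1. The sets differ in their share of pEPI cells, and within the branches 5 of the 8 genes were past 2-fold in both. Dnmt3b and Lin28b missed it in pEPI, at log2 ratios of 0.57 and 0.47, and Tead2 in pPrE, at 0.49. Among the 5, the ratios of Nodal and Lefty2 in both branches and of Sox11 in pPrE are bounds, with the cells with Y-linked counts at the floor. The shares over all genes above are those of the pooled sets, so these within-branch counts have no background beside them. Dnmt3l was more than 2-fold higher with Y-linked counts in both branches, at -1.83 in pEPI and -1.09 in pPrE, and Dnmt3a in pEPI, at -3.11. Of the 13 naive genes, 2 were at least 2-fold higher without, Prdm14 and Fgf4, and the median was 0.18.

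Lefty2, an inhibitor and target of Nodal signalling, was counted in 13 of 19 cells without Y-linked counts (68.4%, interval 43.4 to 87.4%) and in 0 of 29 cells with them, which allows a share of up to 10.3%. It was found in both branches, in 5 of 8 pEPI and 8 of 11 pPrE cells. Nodal had 2217 counts in 7 of the 19 cells and 2 counts in the 29. Evx1, a streak gene, was counted in 5 of the 19 cells and in none of the 29. Of the 4 streak genes counted in at least 5 cells, Evx1 and Mixl1 were at least 2-fold higher without Y-linked counts. Eomes and Gsc were within 2-fold, and counts of so few genes cannot be set apart from the background. Of the rarer ones, Mesp1 and Wnt3 were counted only with Y-linked counts, in 2 and 1 of the 29 cells, and T only without, in 1 of the 19. Lefty2, Nodal and Evx1 lie on chromosomes 1, 10 and 6, none on a sex chromosome. Their positions do not tell sex, embryo and age apart, and what the sets differ by was not tested. The level of Dnmt3b in pPrE was 123 ± 81.5 FPKM without and 24.6 ± 12.7 with Y-linked counts, and in pEPI 19.02 ± 9.52 and 12.8 ± 8.53.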

How the data were processed

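According to the study's methods and the submitters' processing notes, the authors aligned paired-end Smart-seq2 reads to mm10 with STAR and counted them on Ensembl 87 genes with HTSeq (versions not given in the sources used here). They removed libraries under 500000 mapped reads. The deposited values are whole-number counts, without normalization, in 48 columns that all matched a sample. FPKM was computed here from GENCODE M21 exon unions (GRCm38) and median-of-ratios library sizes. The branches were read by eye from the published tree. Of 21943 genes with a count, 85 had no length. The calculation of the ratio of means was tested on simulated counts of genes counted in at least 24 cells. Of the members only Utf1 is counted that often, so the simulation does not bear on the ratios of the sparser members. Alternatives changed detection minimum, depth, library size, pseudocount (1 or 0.1), grouping and cells. A gene was counted from 1 read, the floor was 3 counts per group and the Y-linked threshold 100 counts. Doublets were not called. From the list of other formative genes 1 gene is not reported here. The genes named are the 7 members, genes of the lists past 2-fold or highest, and the 3 most like a member counted in 24 cells or more; Tcf7l1, Sall1, Sall4, Tcf3, Tcf4, Tcf12, Pou3f2, Pou3f3, Evx1 and genes compared between Y-linked sets were named after their values were seen. Members and lists were chosen with earlier results of these data known, and the comparison of the Y-linked sets over all genes was added after seeing the data. Annotated genes that overlap Otx2, Pou3f1 or Lef1 and are in the table had 0 counts. Python 3.11.15, numpy 2.4.6, pandas 2.3.3 and scipy 1.17.1 were used.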

Additional observations from a re-analysis of the deposited data

How the results depend on the processing

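The log2 ratios of Otx2, Utf1 and Tcf15 kept their sign under all 16 alternatives, and the counts of other formative and naive genes past 2-fold stayed within 1.5 times under other minimums of cells or FPKM and, chosen after seeing the data, without each gene's highest cell in the branch where it was higher. The ratio of Otx2 was 0.94 as a difference of mean log2(FPKM + 1), 1.74 with a pseudocount of 0.1, at least 7.67 among cells with Y-linked counts, where pPrE was set at the floor of 3 counts, and 2.73 to 5.16 with the wells of 1 letter left out in turn. The lowest came from averaging logs, which lowers the weight of the few high cells by construction. Ratios resting on few cells turned: among cells with Y-linked counts Pou3f1 to 0.13, a bound with pPrE at that floor, and Sall2 to 0.57. With 1 letter left out, Fgf5 ranged from -1.37 to 4.85 and Sall2 from -4.00 to 0.64, where all but the 0.64 are bounds with 1 branch at the floor. Of 196 shares, 161 moved by less than their interval. At 5 counts or at 1 CPM, pEPI Pou3f1 and Lef1 in both branches fell to 0%. At 10 CPM Otx2 was held by 32% of pEPI and 4.35% of pPrE cells, Tcf15 by 12% of pEPI and Sall2 by 4.35% of pPrE cells, and Pou3f1 and Lef1 in both branches, pPrE Fgf5 and pEPI Sall2 were at 0%. Parting cells by the sign of Nanog over Gata6 put pPrE Fgf5 at 0% and pPrE Utf1 at 100%, and by the first principal component pEPI Sall2 at 0%. With Y-linked counts pPrE Otx2, pPrE Pou3f1 and Fgf5 in both branches were at 0%, and without them pEPI Pou3f1, pEPI Sall2 and Lef1 in both branches at 0% and pPrE Utf1 at 100%. With 1 letter left out, the range was 0 to 10.5% for pEPI Pou3f1, 0 to 5% for pEPI Fgf5, 0 to 5.26% for pEPI Sall2 and pEPI Lef1, 0 to 5.56% for pPrE Fgf5, 0 to 5.88% for pPrE Lef1 and 94.1 to 100% for pPrE Utf1. A gene with no count in a cell may be missed at this depth, and with 1 sample no difference between branches could be tested over embryos. No paired analysis was possible because the labels do not give the embryo of a cell.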
